A study of Mus musculus with 12 samples.

Results

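The miR-15/16, miR-195 and miR-497 family was followed through small RNA libraries of mouse oocytes. Its members were taken by name, as every hairpin in the table called Mir15a, Mir15b, Mir16-1, Mir16-2, Mir195 or Mir497, with any letter suffix. This gave 8 of the 2030 small RNA features: Mir15a, Mir16-1, Mir15b, Mir16-2, Mir195a, Mir195b, Mir497 and Mir497b, each with the ending _seq in the table (Mir15a_seq, Mir15b_seq, Mir16-1_seq, Mir16-2_seq and Mir195a_seq, for example). All 8 passed the filter on low values, as did 1889 features in all.

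Oocytes were taken manually out of ovaries that had not been stimulated, and 12 libraries were made, 4 in each of 3 groups. The wild type group came from wild type ancestors. The Khdc3-null group lacks Khdc3, whose protein belongs to the subcortical maternal complex of the oocyte. The descendant group is genetically wild type, with Khdc3-null grandfathers and wild type grandmothers. Strain, age and the number of oocytes or animals per library were not given in the sources used here, so each p-value measures the spread between libraries, which may be technical. Mapped reads per library ranged from 2918620 to 7640554. Levels are in RPM, the reads of a hairpin scaled to the mapped reads of its library. The targeted gene could not be checked, since the features are loci of small RNAs. Khdc3-null replicate 1 stood somewhat apart, with a median correlation of 0.918 with the other libraries over 1889 features, where the other 11 lay between 0.946 and 0.961.

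MicroRNAs guide Argonaute proteins to messenger RNAs, and the bases near the 5′ end of the miRNA, called the seed, lead the pairing. The miR-15 family is known for repressing the cyclins, kinases and checkpoint genes of the cell division cycle and the survival gene Bcl2. In humans, the cluster of miR-15a and miR-16-1 is often deleted in chronic lymphocytic leukaemia, and in mice miR-195 is linked to the withdrawal of heart muscle cells from the cell cycle. In the growing mouse oocyte, repression by miRNAs is known to be weak compared with that in somatic cells.

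The mature sequences are shown because the family is defined by its seed. They are from RefSeq on GRCm38.p6, 5′ to 3′, with bases 2 to 8 in capitals.
miR-15a-5p: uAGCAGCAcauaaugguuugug
miR-15b-5p: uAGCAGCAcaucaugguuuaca
miR-16-5p: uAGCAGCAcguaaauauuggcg
miR-195a-5p: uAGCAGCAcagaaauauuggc
miR-195b: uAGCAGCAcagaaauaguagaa
miR-497a-5p: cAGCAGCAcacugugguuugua
miR-497b: cACCACAGugugguuuggacgugg
Of the 8 members, 7 carry the seed AGCAGCA, and miR-497b carries another. Counted from 1 at the 5′ end, miR-16-5p and miR-195a-5p differ over 21 bases by the substitutions G10A and U11G. The miR-195b sequence departs from miR-195a-5p by U17G, G19A and C21A, all outside the seed, and lies on another chromosome.

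The members sit in 3 clusters and at 1 separate locus (mm10, GENCODE M21). Mir15a (chr14:61632027-61632110) and Mir16-1 (chr14:61631880-61631972) lie 54 bases apart on the minus strand within the long noncoding gene Dleu2. Mir15a is in an intron, and Mir16-1 overlaps an annotated Dleu2 exon. Mir15b (chr3:69009772-69009835) and Mir16-2 (chr3:69009902-69009996) lie 66 bases apart in an intron of Smc4, which codes for a condensin subunit. Mir497 (chr11:70234717-70234800) precedes Mir195a (chr11:70235042-70235135) by 241 bases on the plus strand, where Mir195a overlaps no annotated gene. Mir497b (chr11:70234692-70234816) is on the minus strand and covers all 84 bases of Mir497. The mature miR-497b lies opposite 17 bases of miR-497a-3p. Mir195b (chr2:56785811-56785907) overlaps no annotated gene.

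The hairpins of Mir16-1 and Mir16-2 are shown because both hold the whole miR-16-5p sequence, in capitals, and differ around it.
Mir16-1: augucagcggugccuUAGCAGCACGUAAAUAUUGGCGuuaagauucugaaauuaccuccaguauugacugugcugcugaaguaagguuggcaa
Mir16-2: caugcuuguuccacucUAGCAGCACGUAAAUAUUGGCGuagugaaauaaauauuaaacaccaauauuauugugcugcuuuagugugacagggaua
A read of miR-16-5p therefore aligns to either locus equally well, and how such reads were assigned was not given in the sources used here.

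Both Mir16 loci were the most abundant members and had nearly equal levels in every library. Mir16-1 stood at 2428 RPM and Mir16-2 at 2465 RPM on average, which placed them 12th and 11th among 1038 tested hairpins. The ratio of Mir16-1 to Mir16-2 ran from 0.952 to 1.01 over the 12 libraries, with a mean of 0.985 ± 0.0180 (SD, n = 12). In 10 libraries the exact binomial interval of the share of Mir16-1 in the reads of both, which covers counting error only, held 50%. In wild type replicate 2 it ran from 48.4% to 49.5% and in Khdc3-null replicate 4 from 48.2% to 49.3%. The loci are on different chromosomes and in different host genes, and their values are not independent measurements.

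**Figure D1:**
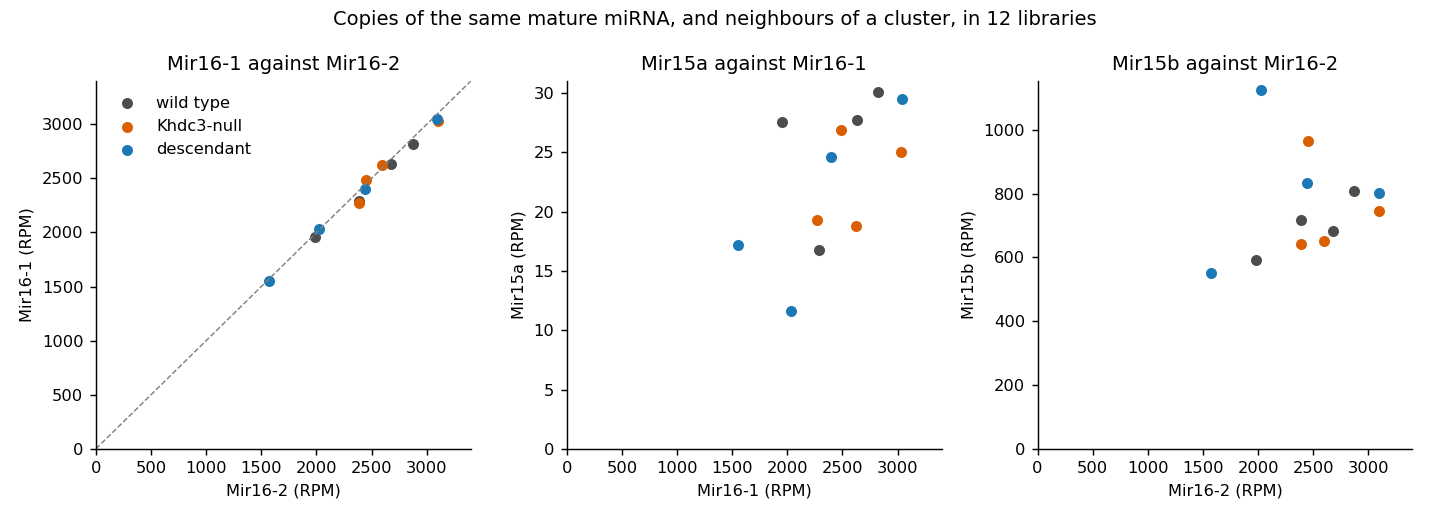
Levels of paired loci in 12 libraries, coloured by group, both axes in RPM. Left, Mir16-1 against Mir16-2 with the line of equality (ratios 0.952 to 1.01); middle, Mir15a against Mir16-1; right, Mir15b against Mir16-2, where descendant replicate 2 stands highest at 1124 RPM.

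The other members of the Dleu2 and Smc4 clusters, which have mature sequences of their own, were scarcer than the miR-16 loci beside them. Mir15b, the Smc4 member, stood at 760 RPM on average. Its level was 24.0% to 55.5% of that of Mir16-2, and the highest value came from descendant replicate 2. Mir15a, from Dleu2, stood at 22.9 RPM, which was 0.574% to 1.41% of the level of Mir16-1. Because reads of miR-16-5p cannot be placed, these shares do not give the output of either cluster. Mir15a and Mir15b can be told apart from each other by A12C, G20A, U21C and G22A.

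Below the miR-16 loci, the order of the members by mean level was Mir15b, Mir195a at 359 RPM, Mir195b at 88.0 RPM, Mir497b at 70.3 RPM, Mir497 at 35.8 RPM and Mir15a at 22.9 RPM. RPM is not divided by length, and per base of hairpin the order below the miR-16 loci was the same, from 11.9 RPM per base for Mir15b to 0.273 RPM per base for Mir15a. In wild type oocytes the ranges of the miR-16 loci (1954 to 2872 RPM), Mir15b (591 to 809 RPM), Mir195a (354 to 552 RPM) and Mir195b (80.0 to 126 RPM) did not overlap. Mir497b (29.7 to 73.3 RPM), Mir497 (11.0 to 60.7 RPM) and Mir15a (16.8 to 30.1 RPM) overlapped each other. Mir195b and Mir497b kept apart in Khdc3-null oocytes, at 72.9 to 135 against 42.6 to 60.5 RPM, and overlapped in descendants. The smallest number of reads behind a member in any library was 55, for Mir15a.

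**Figure D2:**
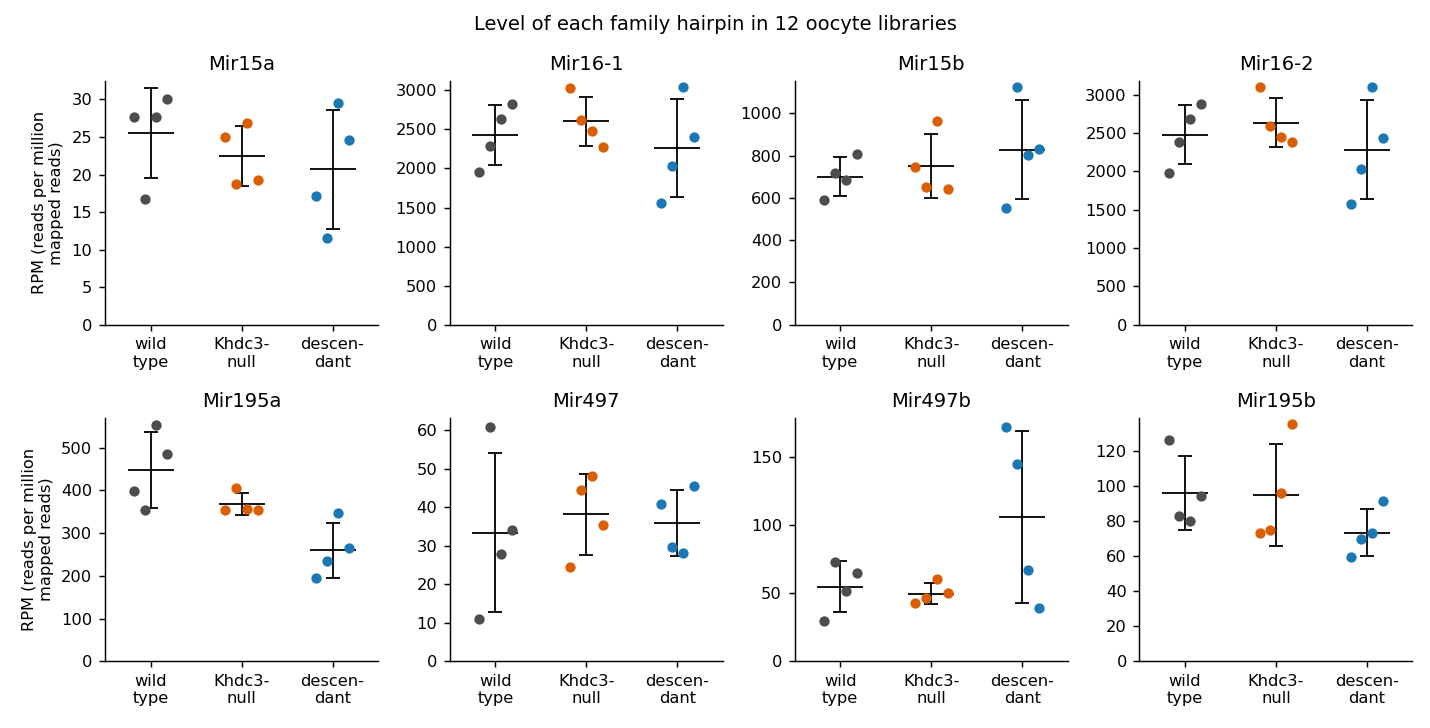
Level of each member in RPM (y axis, from 0) in the 3 groups (x axis). Points are libraries in replicate order from left to right, and bars give the mean and SD (n = 4); the 4 descendant libraries of Mir195a, at 194 to 346 RPM, lie below all 8 others.

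Mir195a had the clearest separation of groups in the family, and it did not pass the test. In wild type libraries, in replicate order, it stood at 399, 354, 552 and 485 RPM. The Khdc3-null libraries gave 354, 406, 357 and 355 RPM. Descendant libraries gave 194, 236, 346 and 265 RPM. Every descendant library lay below every library of the other groups, by a narrow margin for descendant replicate 3, while wild type and Khdc3-null overlapped. Means were 447 ± 88.6, 368 ± 25.6 and 260 ± 64.3 RPM (SD, n = 4) in that order of groups.

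For descendants against wild type oocytes, the question is whether a null grandfather leaves a difference in mice without the mutation. Mir195a had a log2 difference of -0.79 (95% confidence interval -1.16 to -0.42), or 57.8% of the wild type level, with a limma adjusted p = 0.813. It had the smallest p of all 1889 features in this comparison, yet 0 of 1889 features (0%) passed an adjusted p under 0.05. It was the 1 of 8 members whose groups did not overlap, where 52 of all features (2.75%) did not overlap in either direction. It was also the 1 member with an unadjusted limma p under 0.05, where 77 features (4.08%) had one. Leaving out descendant replicate 3 gave -0.94 with an adjusted p = 0.109, the lowest among the alternatives, and over all of them the adjusted p ran from 0.109 to 0.997.

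Against Khdc3-null oocytes, the level of Mir195a in descendants was 69.3% (log2 -0.53, SE 0.17, limma adjusted p = 0.658). The other member with an unadjusted limma p under 0.05 here was Mir497b, so that 2 of 8 had one, where 121 features (6.41%) did. Mir195a was the 1 of 8 members without overlap, where 3.02% of all features did not overlap in either direction, and 0% passed the adjusted threshold. Without Khdc3-null replicate 1 the difference was -0.55. Khdc3-null against wild type oocytes gave a log2 difference of -0.26 (SE 0.17, limma adjusted p = 0.945), with a confidence interval from -0.63 to 0.11. Leaving out 1 library at a time moved it between -0.37, without wild type replicate 2, and -0.15, without wild type replicate 3. The limma F test over the 3 groups had an adjusted p of 0.559. The comparisons share groups, so their differences are not independent of each other.

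Libraries can be compared for Mir195a without the scaling to mapped reads by setting it against the miR-16 loci of the same library, whose reads differ from its own at 2 bases of the mature sequence. Mir195a was 7.56% to 10.4% of the summed miR-16 loci in wild type, 5.78% to 7.78% in Khdc3-null and 5.47% to 6.20% in descendant libraries. On this scale descendants and wild type did not overlap, and descendants and Khdc3-null did. Scaled to the reads on miRNA hairpins, the log2 difference of Mir195a between descendants and wild type was -0.74, and with median-of-ratios scaling it was -0.76.

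Markers of stroma and vessels were lower in the same libraries. This list of 14 miRNA hairpins, which includes the smooth muscle miRNA Mir143 and the endothelial miRNA Mir126a, had a summed level of 13183 to 17690 RPM in wild type, 13571 to 15922 RPM in Khdc3-null and 10796 to 12284 RPM in descendant libraries, and no marker was at 0 in all libraries. In descendants against wild type, 13 of 14 were lower, where 54.1% of all features were. The median log2 difference of the 14 was -0.31, and that of all features was -0.02. In descendants against Khdc3-null, 13 of 14 were also lower, where 43.2% of all features were. The median of the 14 was -0.31 there, and that of all features was 0.05. Paired loci in the list (Mir125b-1 and Mir125b-2, Mir199a-1 and Mir199a-2, Mir218-1 and Mir218-2) may share reads, so the 14 may not be independent. None of the 14 passed the adjusted threshold in either comparison. The most abundant, Mir10b, stood at 4220 ± 1171 RPM in wild type and 2849 ± 387 RPM in descendant oocytes (log2 -0.54, SE 0.17). Mir143 moved less, from 3031 ± 303 RPM in wild type to 2779 ± 647 RPM in descendants (log2 -0.15, SE 0.15). Mir99a stood at 2186 ± 435 and 1864 ± 117 RPM in the same order (log2 -0.21, SE 0.16). Mir195a amounted to 2.43% to 3.68% of the summed list in wild type, 2.27% to 2.63% in Khdc3-null and 1.58% to 2.86% in descendants, so the ranges of all 3 groups overlapped. Descendant replicate 3, at 2.86%, made the overlap of its group. Descendant replicates 1, 2 and 4, at 1.58%, 2.18% and 2.16%, lay below all libraries of the other groups. In such bulk libraries, fewer cells of a type and less RNA per cell cannot be told apart. The part of the stroma and vessel miRNAs in the level of Mir195a was not tested.

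**Figure D3:**
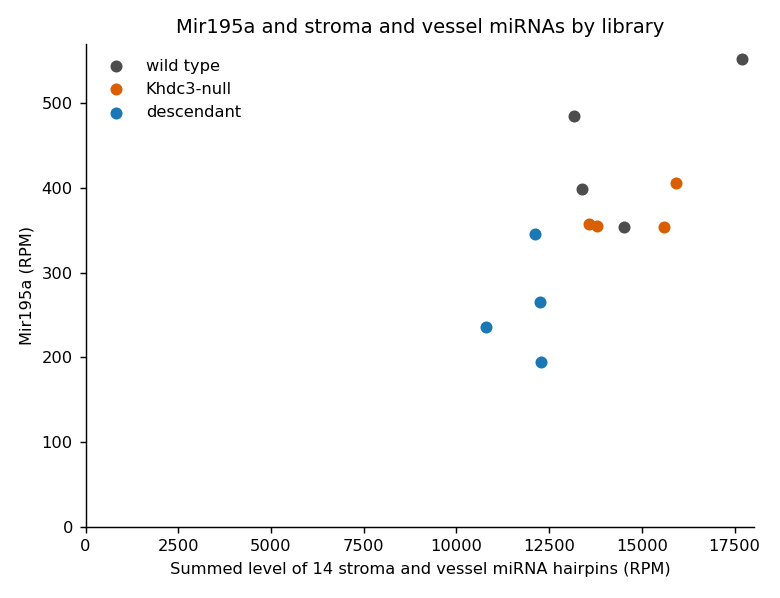
Level of Mir195a (y axis, RPM) against the summed level of 14 stroma and vessel miRNA hairpins (x axis, RPM) in each of 12 libraries, coloured by group. The descendant libraries are lowest on both axes, at 194 to 346 RPM and 10796 to 12284 RPM. Pearson's r on log2 values was 0.72 and Spearman's rho 0.67. The sum of the miR-34, miR-449 and miR-26 hairpins gave 0.78 and 0.52 with Mir195a.

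The other marker lists gave the following levels. Granulosa miRNAs (9 of 12 in the table) summed to 1556 to 2061 RPM in wild type, 1407 to 1778 RPM in Khdc3-null and 1418 to 1672 RPM in descendants, and 7 of 9 had a lower mean in descendants than in wild type (median log2 difference -0.27), where 54.1% of all features did, with a median of -0.02. In Khdc3-null against wild type, 7 of 9 granulosa hairpins also had a lower mean, with a median of -0.03, where 59.3% of all features did, with a median of -0.05. Leukocyte miRNAs (5 of 7 in the table) summed to 134 to 194, 111 to 231 and 110 to 151 RPM in the same order of groups. Of these 5 hairpins, 4 had a lower mean in descendants than in wild type (median log2 difference -0.57), where 54.1% of all features did, with a median of -0.02. In Khdc3-null, 3 had a lower mean than in wild type (median -0.76), where 59.3% of all features did, with a median of -0.05. Both medians equal the values of Mir155, a scarce hairpin at 12.2 RPM on average. The most abundant, Mir146b, differed from wild type by 0.19 in Khdc3-null and -0.21 in descendants (SE 0.20). Mir223, the next, differed by 0.71 and 0.39 (SE 0.42). In each of these comparisons 1 leukocyte hairpin had an unadjusted limma p under 0.05, and 0 passed the adjusted threshold. Of all features, 5.03% had such an unadjusted p in Khdc3-null and 4.08% in descendants, each against wild type. The part of the granulosa and leukocyte miRNAs in the level of Mir195a was not tested. Erythrocyte miRNAs (2 of 4 in the table), a source in which miR-16 is also abundant, summed to 4.77 to 20.5, 2.88 to 68.4 and 11.7 to 54.2 RPM. The miR-290 cluster, listed here for oocytes and early embryos, summed to 124 to 159, 84.2 to 143 and 120 to 146 RPM. All libraries held far more of the stroma and vessel list, but these levels do not measure the share of oocyte RNA. In Khdc3-null against wild type, 7 of 8 hairpins of the cluster were lower (median log2 difference -0.29). Of all features, 59.3% were lower there, with a median of -0.05. The sum of 84.2 RPM came from Khdc3-null replicate 1, and the other Khdc3-null libraries held 120 to 143 RPM. Hairpins of a single cluster may not be independent. In descendants, 3 of 8 were lower than in wild type (median 0.04), where 54.1% of all features were. Against Khdc3-null, 2 of 8 were lower (median 0.25), where 43.2% of all features were. None passed the adjusted threshold.

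Mir497, the neighbour of Mir195a, showed no separation of groups. It stood at 11.0, 60.7, 27.9 and 34.1 RPM in wild type, at 24.5, 44.5, 48.1 and 35.4 RPM in Khdc3-null and at 40.7, 29.6, 28.0 and 45.4 RPM in descendant libraries. All 3 groups overlapped, and wild type replicates 1 and 2 held the lowest and the highest value of all. Descendants differed from wild type by 0.30 in log2 (confidence interval -0.57 to 1.16, limma adjusted p = 0.96), and the sign turned to -0.13 without wild type replicate 1. Mir497 amounted to between 2.76% and 21.0% of Mir195a, which lies on the same strand.

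Mir497b, annotated on the strand opposite Mir497, had its highest values in descendants. It stood at 29.7, 73.3, 52.1 and 65.1 RPM in wild type and at 42.6, 46.6, 60.5 and 50 RPM in Khdc3-null libraries. Descendant libraries gave 172, 145, 67.1 and 39.3 RPM. Replicates 1 and 2 were above every other library, and replicates 3 and 4 lay within the range of wild type. The log2 difference was 0.78 from wild type (SE 0.40, limma adjusted p = 0.946) and 0.85 from Khdc3-null (SE 0.40, limma adjusted p = 0.722). Without descendant replicate 1 these were 0.47 and 0.55, and without replicate 4 they were 1.17 and 1.25. Whether reads were counted by strand was not given in the sources used here, so reads of Mir497 and Mir497b may not be separable. The ratio of Mir497b to Mir497 ran from 0.866 to 4.91, with the highest values, 4.24 and 4.91, in descendant replicates 1 and 2.

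Mir195b, whose mature sequence differs from that of Mir195a at 3 bases of 21, stood at 126, 83.0, 80.0 and 94.1 RPM in wild type and at 72.9, 74.7, 96.1 and 135 RPM in Khdc3-null libraries. Descendants gave 59.2, 70.0, 73.4 and 91.1 RPM. Of these, 3 were below the lowest wild type library, and the groups overlapped (log2 -0.37, SE 0.22, limma adjusted p = 0.946). Its difference from Khdc3-null was -0.33 (SE 0.22, limma adjusted p = 0.755). With 1 library left out, the difference of Mir195b from wild type ran from -0.48, without descendant replicate 4, to -0.23, without wild type replicate 1. That from Khdc3-null ran from -0.44, without Khdc3-null replicate 1 or descendant replicate 4, to -0.15, without Khdc3-null replicate 4.

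The Mir16 loci and Mir15b did not pass in any comparison, and their groups overlapped. Mir16-1 stood at 1954, 2289, 2631 and 2821 RPM in wild type, at 3028, 2625, 2483 and 2272 RPM in Khdc3-null and at 1554, 2030, 3045 and 2401 RPM in descendant libraries. Descendants held both the lowest and the highest of the 12 values. The log2 difference of Mir16-1 was 0.11 (SE 0.18) for Khdc3-null and -0.13 (SE 0.18) for descendants, each against wild type, and the second turned to 0.03 without descendant replicate 1. The first was 0.01 without wild type replicate 1, 0.03 without Khdc3-null replicate 1 and 0.19 without wild type replicate 4. Descendants differed from Khdc3-null by -0.24, which was -0.07 without descendant replicate 1 and -0.40 without descendant replicate 3 (limma adjusted p = 0.581). When both loci were summed to 1 feature, no feature passed either.

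Mir15b stood at 591, 718, 684 and 809 RPM in wild type, at 744, 650, 965 and 643 RPM in Khdc3-null and at 551, 1124, 803 and 832 RPM in descendant libraries. Descendant replicates 1 and 2 gave the lowest and highest of all 12 values. Its log2 differences from wild type were 0.09 in Khdc3-null and 0.20 in descendants (SE 0.19 for both, limma adjusted p = 1 and adjusted p = 0.946). The descendant difference from wild type was 0.38 without descendant replicate 1 (limma adjusted p = 0.937) and 0.04 without descendant replicate 2. Without descendant replicate 2, the difference of Mir15b between descendants and Khdc3-null was -0.05 in place of 0.12.

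Mir15a stood at 27.6, 16.8, 27.7 and 30.1 RPM in wild type, at 25.0, 18.8, 26.9 and 19.3 RPM in Khdc3-null and at 17.2, 11.6, 29.5 and 24.6 RPM in descendant libraries, and all groups overlapped. The log2 difference from wild type was -0.16 in Khdc3-null and -0.33 in descendants (SE 0.31 for both, limma adjusted p = 1 and adjusted p = 0.946). With 1 library left out, the Khdc3-null difference of Mir15a ran from -0.34, without wild type replicate 2, to -0.07, without wild type replicate 4. The descendant difference ran from -0.52, without wild type replicate 2 or descendant replicate 3, to -0.10, without descendant replicate 2.

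**Figure D4:**
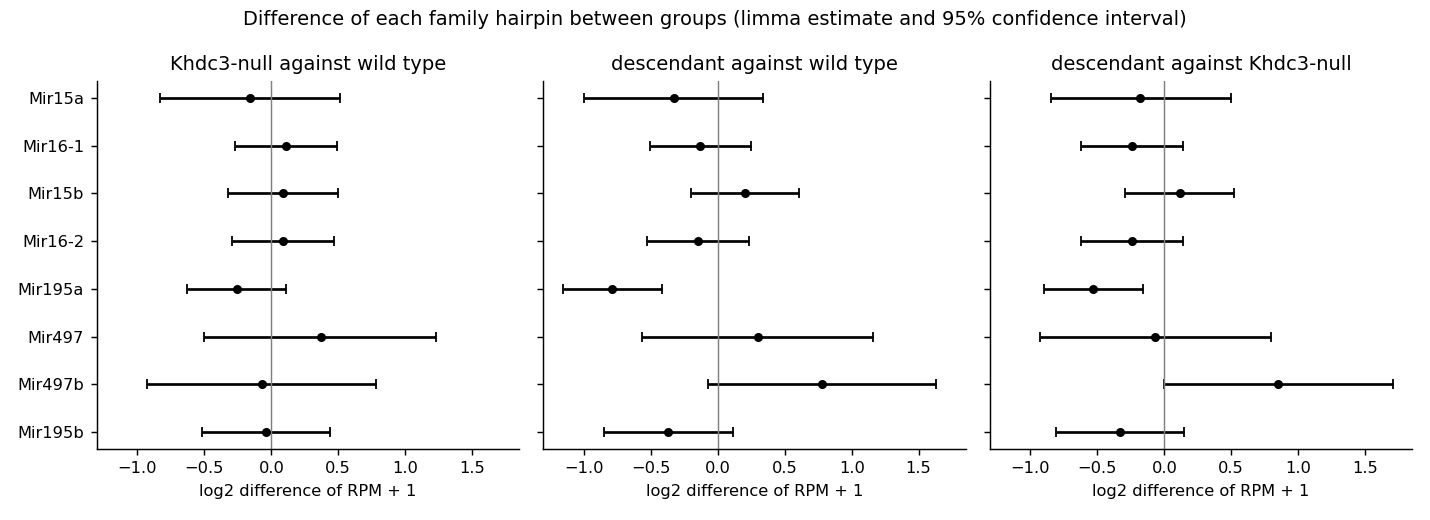
Log2 difference of RPM + 1 (x axis) for each member (y axis) in the 3 comparisons, as the limma estimate with its 95% confidence interval. The interval of Mir195a lies below 0 in both comparisons of descendants (-1.16 to -0.42 and -0.90 to -0.16), and none of the 24 differences passed after adjustment over all features.

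Of the 8 members, 4 had a lower and 4 a higher mean in Khdc3-null than in wild type oocytes (59.3% of all features had a lower one; median log2 difference 0.02, where all features had -0.05), and 0 had groups without overlap (3.18% of all features did). In this comparison 0% of features passed the adjusted threshold and 95 (5.03%) had an unadjusted limma p under 0.05, none of them a member. For descendants, 5 of 8 had a lower mean than in wild type (54.1% of all features did; median -0.14, where all features had -0.02). Against Khdc3-null, 6 of 8 had a lower mean (43.2% of all features did; median -0.21, where all features had 0.05). The confidence intervals excluded a 2-fold difference of RPM + 1 in 7 of 8 members for Khdc3-null against wild type, in 4 of 8 for descendants against wild type and in 7 of 8 for descendants against Khdc3-null.

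Members of the family varied largely apart from each other. Over the 12 libraries, Pearson's r of log2(RPM + 1) was 1.00 between the Mir16 loci. The other 27 pairs lay between -0.64 and 0.65 with a median of 0.04. The pair in Dleu2, Mir15a and Mir16-1, had r = 0.56, the pair in Smc4, Mir15b and Mir16-2, r = 0.28, and Mir497 and Mir195a r = -0.23. Mir195a was closer to the Mir16 loci, at 0.64 and 0.65, and to Mir15a, at 0.62, than to its neighbour. Spearman's rho of Mir195a was 0.40 with Mir16-1, 0.43 with Mir16-2 and 0.59 with Mir15a. These are descriptions over libraries that share groups and scaling.

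Among 334 other tested hairpins with a mean of at least 50 RPM, those whose pattern over the 12 libraries was most like each member were named by Pearson's r on log2(RPM + 1), the 3 highest for each. For Mir195a they were Mir26a-2 (r = 0.85), Mir26a-1 (0.82) and Mir103-2 (0.80), where the median over all 334 was 0.04. The named hairpins were picked by their r, so their place far above the median follows from the choice. For Mir16-1 they were Mir191 (0.82), Mirlet7a-1 (0.81) and Mir23b (0.81), and for Mir16-2 the same 3 hairpins at 0.82 to 0.84. Mir15a was most like Mir6357 (0.78), Mir143 (0.73) and Mirlet7g (0.72), and Mir15b most like Mir672 (0.73), Mir182 (0.69) and Mir7009 (0.67). For Mir497 they were Mir7026 (0.76), Mir7242 (0.74) and Mir1983 (0.74). Mir497b was most like Mir3081 (0.80), Mir6389 (0.79) and Mir210 (0.79). For Mir195b they were Mir7b (0.84), Mir7036b (0.74) and Mir6357 (0.71). Spearman's rho of the named pairs ran from 0.41, for Mir15a and Mir143, to 0.81, for Mir16-2 and Mir191.

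Of the hairpins outside the family, 4 also have a mature arm with the seed AGCAGCA and so could pair with the same sites. Their sequences are shown for comparison with the family, from RefSeq on GRCm38.p6, with bases 2 to 8 in capitals.
miR-322-5p: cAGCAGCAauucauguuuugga
miR-6342: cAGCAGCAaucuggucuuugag
miR-6353: uAGCAGCAcguauuuauccuauu
miR-6419: cAGCAGCAaucugacacaugga
Mir322, on the X chromosome, was about as abundant as each of the Mir16 loci alone, and less abundant than both together. It stood at 2603 ± 433 RPM in wild type, 2699 ± 495 RPM in Khdc3-null and 2366 ± 321 RPM in descendants (SD, n = 4), and the groups overlapped. The other 3 were scarce, with means of 11.2 RPM for Mir6342, 18.4 RPM for Mir6353 and 53.5 RPM for Mir6419.

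Mir6353 stood at 23.6, 15.2, 27.4 and 14.4 RPM in wild type, at 49.2, 19.9, 16.7 and 13.0 RPM in Khdc3-null and at 6.81, 17.4, 9.90 and 7.17 RPM in descendant libraries. The groups overlapped, with 3 of 4 descendants below the lowest of the others (log2 -0.94 from wild type, SE 0.42, limma adjusted p = 0.946). Mir6342 stood at 8.82, 1.08, 6.92 and 9.85 RPM in wild type and at 22.9, 10.9, 14.8 and 15.1 RPM in descendants. These groups did not overlap (log2 1.34, SE 0.48, limma adjusted p = 0.946), where 2.75% of all features did not, in either direction. The value of 1.08 RPM, in wild type replicate 2, rested on 7 reads. Khdc3-null libraries gave 10.3, 12.0, 13.9 and 7.95 RPM for Mir6342 and overlapped both other groups.

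Summed over the 11 hairpins with the seed, the level was 8885 ± 994 RPM in wild type, 9305 ± 795 RPM in Khdc3-null and 8203 ± 1598 RPM in descendants (SD, n = 4), and the groups overlapped. The Mir16 loci held 48.8% to 62.3% of this sum and Mir322 held 22.9% to 36.4%. Mir195a held 3.99% to 5.64% in wild type, 3.60% to 4.36% in Khdc3-null and 2.97% to 3.36% in descendants. On this scale, too, the descendants lay below all other libraries, while the sum as a whole did not separate the groups. If reads of miR-16-5p were counted at both loci, the sum holds them more than once.

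**Figure D5:**
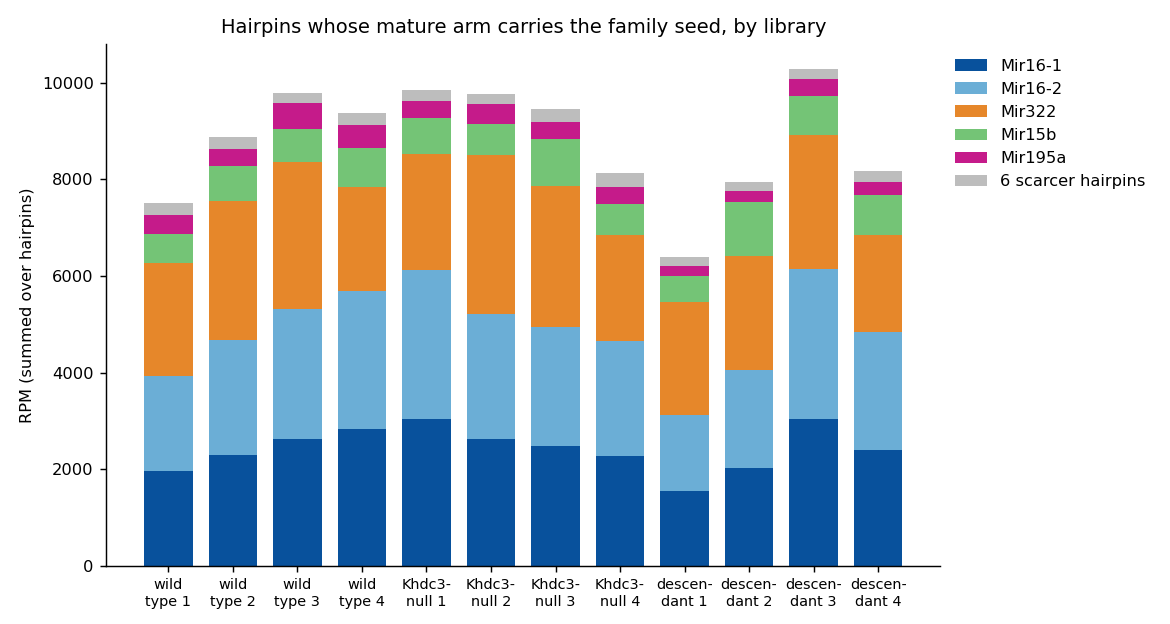
Summed RPM (y axis, from 0) of the 11 hairpins whose mature arm carries the seed AGCAGCA, stacked by hairpin in each of 12 libraries (x axis). The Mir16 loci and Mir322 make up most of each bar, and the grey part sums the 6 hairpins with a mean under 100 RPM.

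Other miRNAs known to repress the cyclins and kinases of the same step of the cell cycle were the miR-34, miR-449 and miR-26 families. In descendants against wild type, 4 of these 9 hairpins were lower and 5 higher, with a median log2 difference of 0.18, where all features had -0.02. None passed the adjusted threshold, and 3 of 9 had an unadjusted limma p under 0.05, all of them lower, where 4.08% of all features had one in either direction. The list summed to 4795 to 5309 RPM in wild type and 4527 to 5276 RPM in Khdc3-null libraries, and to 3913, 3803, 5526 and 4469 RPM in descendants. Descendant replicate 3 was the highest of all 12 libraries and the other 3 were the lowest. In descendants against Khdc3-null, 5 were lower and 4 higher, with a median of -0.03, and 2 had an unadjusted limma p under 0.05, both lower, where 6.41% of all features had one in either direction. The most abundant, Mir34b, stood at 1798 ± 153 RPM in wild type, 1786 ± 162 RPM in Khdc3-null and 2093 ± 590 RPM in descendants. Mir26a-1 stood at 1377 ± 130, 1440 ± 206 and 1019 ± 137 RPM (SD, n = 4), in the same order, and Mir26a-2 at 1301 ± 148, 1350 ± 197 and 909 ± 133 RPM. Their log2 differences in descendants against wild type were -0.44 and -0.52 (SE 0.13 for both). These paired loci may share reads, as the Mir16 loci may, so the counts over this list may not be of independent values. In Khdc3-null against wild type, 4 were lower and 5 higher, with a median of 0.05.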

How the data were processed

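Small RNA was isolated with the PicoPure kit and libraries were built by the NEXTFLEX small RNA protocol, per the labels' protocols. Reads were aligned to mm10 with Bowtie2, per the submitters' processing notes; its version, adapter trimming, the counting tool and the treatment of reads with several best loci are not given in the sources used here. The authors deposited RPM with 1 added to every value, and 1 was subtracted here. After that, 100% of values were whole multiples of 1 step per library (within 0.05 reads), which gave the mapped reads.

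A feature was tested if 4 or more libraries held 1.61 RPM of it, which is 10 reads at median depth. The test was limma-trend (limma 3.58.1, R 4.3.3) on log2(RPM + 1), as 1 fit of 3 group means over all 12 libraries. P-values were Benjamini-Hochberg adjusted over 1889 features, with a threshold of 0.05. The fit was checked on simulated data. Fold changes refer to RPM + 1 and understate those of scarce hairpins. A count of 0 allows up to 1.03 RPM in the shallowest library, for counting error only. The edgeR test planned for recovered reads was not run. limma-voom was run on the recovered reads.

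Named beside the members were the other hairpins with their seed, the 3 hairpins of highest Pearson's r per member, and the most abundant hairpins of each list, 3 at most. The members and lists were chosen with earlier results of these data known. Mature sequences were found for 8 of 8 members and hairpins for 7.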

Additional observations from a re-analysis of the deposited data

Results flagged for a closer look

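Within a group of 4 libraries, 1 value can stand apart from the other 3. Over 81 groups of values (levels and ratios), 3 had a gap to the nearest value that was a larger share of the range than Dixon's 95% critical value for 4 samples, where chance gives about 1 in 20. Mir195a stood at 406 RPM in Khdc3-null replicate 2, with the other 3 at 354 to 357 RPM. The ratio of Mir16-1 to Mir16-2 was 0.959 in wild type replicate 2, with the others at 0.982 to 0.985. The share of Mir322 in the hairpins with the seed was 22.9% in wild type replicate 4, with the others at 31.1% to 32.5%.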

How the results depend on the processing

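Of 408 recomputed differences of members, 389 kept their sign and side of the threshold, 19 changed sign and 0 passed. Mir195b in Khdc3-null against wild type changed from -0.04 to 0.02 with median-of-ratios scaling and to 0.02 with limma-voom. Leaving out 1 library at a time, the differences of Khdc3-null from wild type ran from -0.04 to 0.16 for Mir15b, -0.01 to 0.17 for Mir16-2, -0.07 to 0.72 for Mir497, -0.34 to 0.09 for Mir497b and -0.22 to 0.10 for Mir195b. Those of descendants from wild type ran from -0.29 to 0.03 for Mir16-1, -0.31 to 0.02 for Mir16-2, -0.13 to 0.65 for Mir497 and -0.94 to -0.66 for Mir195a. Those of descendants from Khdc3-null ran from -0.36 to 0.06 for Mir15a, -0.05 to 0.30 for Mir15b, -0.26 to 0.06 for Mir497 and -0.68 to -0.40 for Mir195a. Features past the threshold stayed at 0, except that 1, Mir6384, which is no member and was named after its values were seen, passed for Khdc3-null against wild type without the filter on low values and without Khdc3-null replicate 1 (range 0 to 1); the cause was not tested. Over the alternatives, features with an unadjusted p under 0.05 numbered 63 to 125 for Khdc3-null against wild type, 53 to 104 for descendants against wild type and 101 to 159 for descendants against Khdc3-null. Scaling moved the median of all features by at most 0.053. edgeR was not run. No paired analysis was possible because the labels give no number shared between groups.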
